A study of Homo sapiens with 34 samples.

Results

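Of the 78005 H3K27ac regions listed in uninduced cells, 7228 (9.27%) lay inside a protein-coding gene, away from its ends, and were also occupied by RNA polymerase II (Pol II). They were chosen by presence in lists: a region under 6000 bp wide in the uninduced H3K27ac list, overlapping a region of the induced H3K27ac list, within a RefSeq protein-coding gene of GRCh38, not within 1 kb of a gene end, and overlapping a region of the uninduced Pol II list. Sharing with the induced H3K27ac list and Pol II in the uninduced list are therefore given by the choice. Of the lists used here, that of induced Pol II took no part in it. The width limit left 75502 regions, sharing between both H3K27ac lists 64166, the position inside a gene 26081 and Pol II 7228, so 27.7% of the shared intragenic regions carried Pol II.

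The cells were DLD1, a line from a colorectal adenocarcinoma, in which a tetracycline-inducible transgene encodes dominant negative TCF7L2. TCF7L2 is the DNA-binding partner through which β-catenin activates Wnt target genes. Induced cells received 1 µg/mL doxycycline for 24 h, and uninduced cells received none; both carry the transgene, and doxycycline without the transgene was not among the chromatin samples. The H3K27ac antibody and the Pol II antibody each had 2 samples per condition, beside 1 input sample for each condition. Both samples of a condition share 1 list in the labels, so no value has a replicate, no difference has a replicate check and no test was possible. Among the fixed markers, 14 of 14 intestinal epithelial genes had an H3K27ac summit with a −log10 q of at least 20 in both conditions, against 1 (induced) and 2 (uninduced) of 8 liver, muscle and neuron genes; 4 of 5 blood and 5 of 7 fibroblast and endothelial genes also did in both.

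H3K27ac is an acetyl mark placed on nucleosomes beside active promoters and enhancers. Enhancers often lie in introns, and many are themselves bound and transcribed by Pol II, which makes short unstable RNAs there; internal promoters of a gene carry the same pair of marks and make full transcripts. Pol II that elongates along an active host gene can also lie under an intragenic acetylated region, and peak lists do not tell these sources apart. In intestinal epithelium, TCF factors with β-catenin sustain the crypt programme through such elements, and truncation of APC keeps that programme on in most colorectal cancers.

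The lists give 2 values for each summit, both the authors' own: a fold enrichment over background and a −log10 q, in which a larger number means a less likely chance enrichment. A region is given here by its highest summit. Because depth and input set the size of these values, conditions were compared by the place of a region, its percentile by −log10 q among the same shared regions in both lists, and a difference in place is induced minus uninduced, in percentile points.

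Start sites inside these regions show the 2 ends of their range. A listed start of a protein-coding gene lay in 954 of them, 13.7% of the 6962 on chromosomes that the table of starts covers. The table is from RefSeq (GRCh38.p14), gives 250 bases before and 50 after each start, and covers 15812 of the 19974 protein-coding genes. The first 5 windows below lie in regions with high Pol II in both conditions, and the other 4 in regions where Pol II was not listed in induced cells or had a lower −log10 q; these genes were picked after their values were seen. Each window reads 5′ to 3′ on the strand of the gene. Capitals mark a TCF motif, CTTTG followed by A or T and again by A or T, on either strand; no other motif was searched. The windows are NFKBIZ at chr3:101849264-101849563 (+ strand), SGK1 at chr6:134174817-134175116 (− strand), AMD1 at chr6:110874535-110874834 (+ strand), SLC3A2 at chr11:62881449-62881748 (+ strand), TJP1 at chr15:29820625-29820924 (− strand), CRIPTO at chr3:46577538-46577837 (+ strand), DPEP1 at chr16:89630020-89630319 (+ strand), CLDN2 at chrX:106918110-106918409 (+ strand) and C10orf90 at chr10:126521392-126521691 (− strand).
NFKBIZ: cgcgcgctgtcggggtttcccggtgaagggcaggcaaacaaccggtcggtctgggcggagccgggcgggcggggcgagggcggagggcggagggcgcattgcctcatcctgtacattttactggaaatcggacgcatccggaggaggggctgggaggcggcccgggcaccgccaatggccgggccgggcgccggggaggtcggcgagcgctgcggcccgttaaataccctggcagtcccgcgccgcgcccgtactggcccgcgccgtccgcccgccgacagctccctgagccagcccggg
SGK1: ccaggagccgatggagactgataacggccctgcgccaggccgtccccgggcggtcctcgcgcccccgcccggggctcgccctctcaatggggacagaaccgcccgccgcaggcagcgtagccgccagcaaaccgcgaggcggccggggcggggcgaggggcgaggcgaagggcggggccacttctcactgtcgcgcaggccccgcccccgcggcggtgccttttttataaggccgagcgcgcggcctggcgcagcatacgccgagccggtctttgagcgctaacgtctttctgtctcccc
AMD1: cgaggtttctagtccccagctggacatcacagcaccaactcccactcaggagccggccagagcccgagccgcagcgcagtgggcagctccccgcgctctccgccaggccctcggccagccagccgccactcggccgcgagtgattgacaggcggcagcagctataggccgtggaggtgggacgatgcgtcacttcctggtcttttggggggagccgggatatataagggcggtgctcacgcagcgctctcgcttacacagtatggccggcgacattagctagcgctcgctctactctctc
SLC3A2: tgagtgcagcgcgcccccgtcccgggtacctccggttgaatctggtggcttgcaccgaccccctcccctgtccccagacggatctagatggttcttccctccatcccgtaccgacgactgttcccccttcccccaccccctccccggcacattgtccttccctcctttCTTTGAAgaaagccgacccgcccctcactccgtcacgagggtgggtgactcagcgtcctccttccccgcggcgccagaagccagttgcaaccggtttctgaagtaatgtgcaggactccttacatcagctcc
TJP1: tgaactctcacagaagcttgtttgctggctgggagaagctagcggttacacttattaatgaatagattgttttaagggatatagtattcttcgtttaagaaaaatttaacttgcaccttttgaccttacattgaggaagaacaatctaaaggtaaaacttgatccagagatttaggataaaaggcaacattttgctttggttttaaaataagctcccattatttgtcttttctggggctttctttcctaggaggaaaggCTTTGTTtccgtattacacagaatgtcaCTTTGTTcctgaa
CRIPTO: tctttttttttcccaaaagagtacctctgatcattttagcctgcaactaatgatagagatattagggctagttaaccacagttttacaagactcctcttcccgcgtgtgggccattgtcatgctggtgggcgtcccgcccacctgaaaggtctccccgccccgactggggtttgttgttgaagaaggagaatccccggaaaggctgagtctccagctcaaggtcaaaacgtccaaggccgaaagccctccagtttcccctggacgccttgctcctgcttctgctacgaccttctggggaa
DPEP1: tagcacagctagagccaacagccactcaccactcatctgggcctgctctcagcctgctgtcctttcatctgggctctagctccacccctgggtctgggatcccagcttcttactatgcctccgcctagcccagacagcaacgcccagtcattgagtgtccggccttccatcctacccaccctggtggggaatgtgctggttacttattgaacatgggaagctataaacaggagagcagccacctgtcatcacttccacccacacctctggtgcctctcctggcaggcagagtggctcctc
CLDN2: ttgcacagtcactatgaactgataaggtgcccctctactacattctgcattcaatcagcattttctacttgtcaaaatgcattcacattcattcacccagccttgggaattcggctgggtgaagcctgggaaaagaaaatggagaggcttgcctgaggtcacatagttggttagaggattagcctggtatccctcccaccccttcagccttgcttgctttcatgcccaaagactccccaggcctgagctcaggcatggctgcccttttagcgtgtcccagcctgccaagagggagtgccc
C10orf90: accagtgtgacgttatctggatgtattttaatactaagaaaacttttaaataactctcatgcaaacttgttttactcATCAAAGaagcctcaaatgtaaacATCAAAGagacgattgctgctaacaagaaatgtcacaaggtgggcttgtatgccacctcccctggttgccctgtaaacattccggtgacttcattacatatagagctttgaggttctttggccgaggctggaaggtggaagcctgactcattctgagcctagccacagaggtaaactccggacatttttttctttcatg

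The NFKBIZ window holds 42 CpG, the SGK1 window 41, AMD1 26, SLC3A2 20 and TJP1 3, against 11 in CRIPTO, 3 in DPEP1, 2 in CLDN2 and 5 in C10orf90. High Pol II thus did not always go with many CpG in the window shown. Another SGK1 start, in a different region with Pol II of 32.1 (induced) and 74.1 (uninduced), has a window with 5 CpG. NFKBIZ encodes a nuclear IκB protein that steers NF-κB target genes; its region had a Pol II −log10 q of 393 in induced cells and 441 in uninduced cells. SGK1, a kinase that regulates epithelial ion transport, had 384 (induced) and 412 (uninduced) in the region of the window shown. AMD1, an enzyme of polyamine synthesis, had 404 (induced) and 456 (uninduced). SLC3A2, the heavy chain of amino acid transporters, had 334 in induced cells and 431 in uninduced cells, and its window holds 1 TCF motif. TJP1, the tight junction scaffold ZO-1, had 344 in induced cells and 329 in uninduced cells, the only one of these 5 with a higher −log10 q in the induced list. By Pol II fold enrichment, NFKBIZ was higher there too, at 48.1 (induced) and 40.1 (uninduced). So were SGK1, at 56.3 (induced) and 41.7 (uninduced), and AMD1, at 55.2 (induced) and 49.4 (uninduced). SLC3A2 was lower by fold as well, at 43.6 (induced) and 49.3 (uninduced). The TJP1 window shown holds 2 motifs and 3 CpG, and the same region holds 2 further listed starts with 21 and 36 CpG and no motif; the uninduced Pol II region covered those 2 and not the one shown.

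Pol II was not listed in induced cells in the regions of CRIPTO, CLDN2 and C10orf90. The uninduced Pol II region covered the start at CLDN2 and DPEP1, and lay elsewhere in the region, off the start, at CRIPTO and C10orf90. CRIPTO, a co-receptor for Nodal ligands, had a Pol II −log10 q of 8.97 in uninduced cells, and its H3K27ac was 33.3 in induced cells and 123 in uninduced cells. CLDN2, a claudin that forms cation pores in leaky epithelia, had Pol II at 11.3 in uninduced cells and H3K27ac at 95.7 in induced and 158 in uninduced cells. C10orf90 had Pol II at 8.43 in uninduced cells and H3K27ac at 59.4 in induced and 154 in uninduced cells. At DPEP1, a membrane dipeptidase, Pol II was 2.35 in induced cells and 23.5 in uninduced cells, and H3K27ac was 19.4 (induced) and 67.9 (uninduced). In these 4 regions both marks had lower values in induced cells, or none for Pol II.

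Over the 1233 protein-coding windows in the regions, the median CpG count was 24 and the median GC content 65.7%, close to the 27 CpG and 66.0% of the 10494 windows in shared regions at gene ends with Pol II. The 98 windows in shared intragenic regions without Pol II had a median of 4 CpG and 50.2% GC. A TCF motif stood in 122 of the 1233 windows (9.89%, 95% interval 8.35 to 11.7%), against 16.3% of the 98 windows without Pol II (10.3 to 24.9%), 7.76% at gene ends and 11.2% of the 22132 protein-coding windows of the table; 13.8% of all 34961 windows of the table hold it. Windows in regions where Pol II was not listed after induction held it in 8 of 44 cases (18.2%, 9.51 to 32.0%), against 114 of 1189 (9.59%) where it was listed. With uninduced Pol II under a −log10 q of 20, the shares were 8 of 44 (18.2%) and 11 of 78 (14.1%), and both sets had a median of 6 CpG. The 1233 windows lie in 954 regions and some overlap, as at AMD1, so they are not independent, while the intervals treat them as such. A match of these letters is a description of the window and not evidence of binding.

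The regions were strong acetylated sites. Their median width was 2136 bp (277 to 5995), with 2 summits, and the median H3K27ac −log10 q stood at 74.0 (induced) and 82.4 (uninduced), with fold enrichments of 14.4 (induced) and 14.0 (uninduced). The 18853 shared intragenic regions without Pol II had a median width of 928 bp and a −log10 q of 14.0 (induced) and 13.6 (uninduced). Shared intergenic regions with Pol II (9205) resembled the intragenic ones, at 61.7 (induced) and 69.6 (uninduced). Shared regions at gene ends with Pol II (11304) were stronger, at 148 (induced) and 156 (uninduced). The regions without Pol II were chosen by its absence, so their weaker acetylation sets 2 readouts side by side and involves no comparison of conditions.

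**Figure D1:**
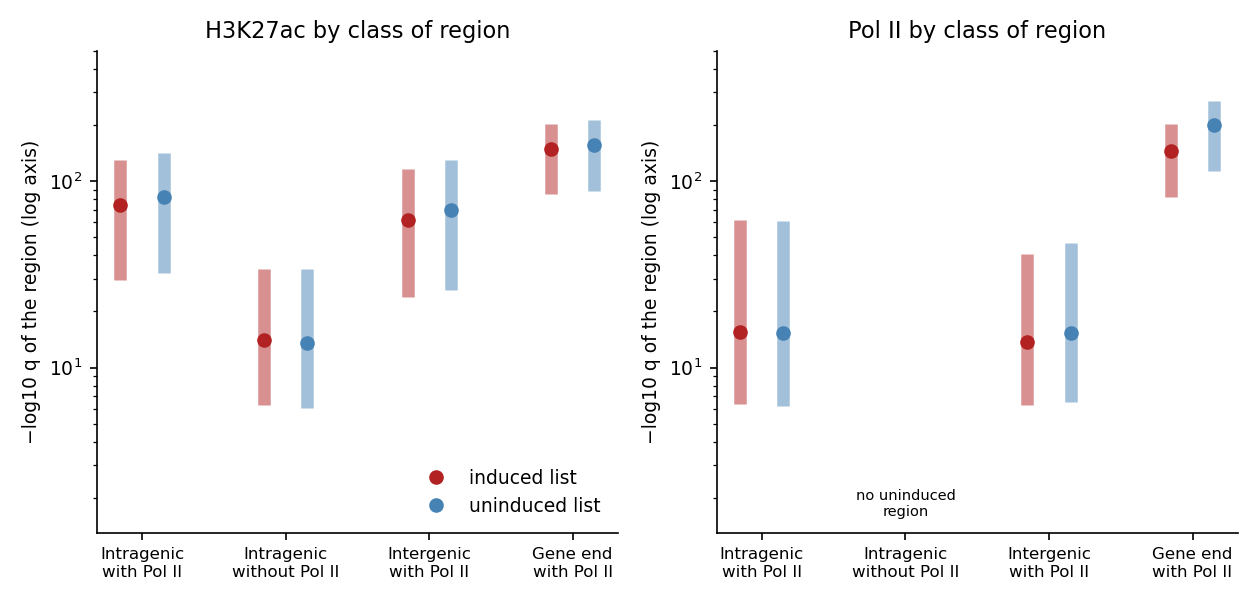
Median (point) and the range between the quartiles (bar) of the −log10 q for H3K27ac (left panel) and Pol II (right panel), on log axes, for 4 classes of shared H3K27ac regions in the induced (red) and uninduced (blue) lists; Pol II of the induced list is over the regions that overlap one. The intragenic regions with Pol II had median H3K27ac of 74.0 induced and 82.4 uninduced, far above those without Pol II. Their median Pol II was 15.4 uninduced over the 7228 regions, far below gene ends. Over the 5448 that overlap induced Pol II, it was 15.4 induced and 26.8 uninduced.

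Pol II was mostly weak and narrow there. The uninduced Pol II −log10 q had a median of 15.4 and ran from 1.32 to 558, against 199 at gene ends, and the Pol II region had a median width of 744 bp, against 1590 bp. Pol II covered a median of 27.6% of a region in induced cells and 40.0% in uninduced cells. The choice required uninduced Pol II, while the 1780 regions without induced Pol II count as 0 in the induced median. This difference is therefore partly given by the choice. A Pol II summit of the uninduced list lay inside 95.9% of the regions, at a median of 229 bp from the H3K27ac summit. Over the 7228 regions, H3K27ac and Pol II of the uninduced list had a Spearman correlation of 0.31 and a Pearson correlation of 0.36; these are values of regions that share libraries and input, given as a description.

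Beyond the listed starts, 3 kinds of region can be told from the annotation. A listed start of a protein-coding gene or a lncRNA gene lay inside 1116 regions, 162 of them with a lncRNA start alone. Another 307 (4.25%) lay under a Pol II region that reached to within 1 kb of a gene end. The remaining 5805 (80.3%) had neither. The host gene was in the table of starts for 5868 of the 7228 regions, so starts are undercounted and the class with neither includes regions whose starts were not looked up. Among hosts present in the table of starts, 18.4% of the regions held a listed start, against 1.01% of the shared intragenic regions without Pol II.

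Regions with a listed start resembled promoters in their marks. Their median H3K27ac was 129 in the induced list and 141 in the uninduced list, their median uninduced Pol II was 142 over a Pol II width of 1378 bp, and they lay at a median of 35.4% of the host gene from its 5′ end. Regions with neither feature had a median H3K27ac of 67.5 (induced) and 77.8 (uninduced), an uninduced Pol II of 11.2 over 655 bp and a median position of 49.3%. Regions under a Pol II region that reached a gene end were weakly acetylated, at 16.2 (induced) and 9.08 (uninduced), under Pol II of 143 over 8454 bp, and lay at 75.1% of a gene with a median length of 19.3 kb.

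**Figure D2:**
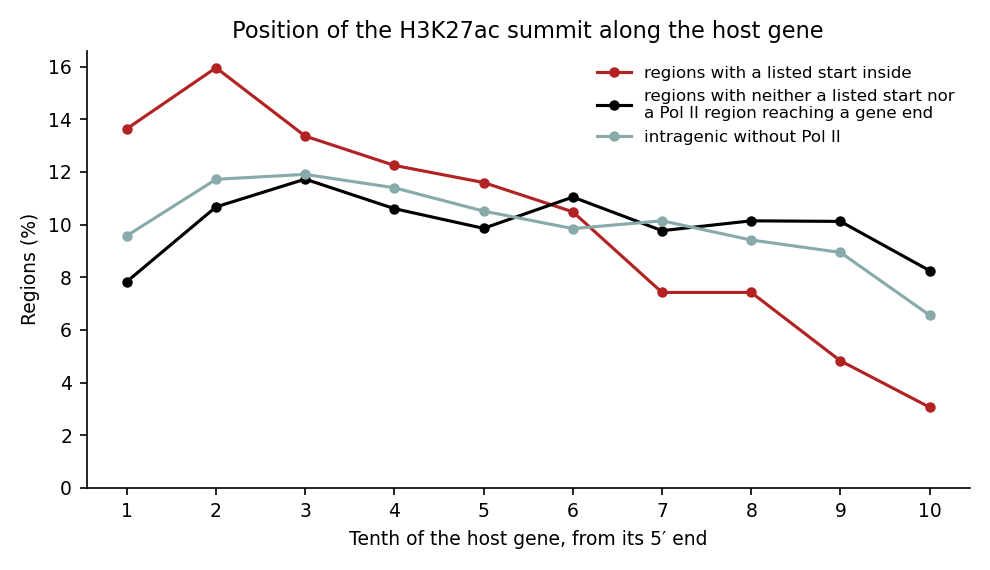
Share of regions (%) in each of 10 equal parts of the host gene, from its 5′ end, by the position of the H3K27ac summit, for intragenic regions with Pol II and a listed start (red), with Pol II and neither feature (black), and without Pol II (grey). Those with a listed start peaked in the second of these parts, at 16.0%, and were down to 3.06% in the last, while the other lines stayed between 6.56 and 11.9%.

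Small RNA genes lay in some of the regions with the highest Pol II. An snRNA gene lay in 2 regions, an snoRNA gene in 8, a tRNA gene in 6 and a miRNA gene in 42. A lncRNA gene overlapped 917 (12.7%), against 7.38% of shared intragenic regions without Pol II, which were narrower. That share was 29.7% for intergenic regions with Pol II and 21.3% for gene ends with Pol II, both higher. The share with an snRNA, snoRNA or tRNA gene was likewise below those of both these classes and above that of intragenic regions without Pol II. RNU5F-1, a U5 spliceosomal RNA gene inside ARMH1, lay in a region with Pol II at 468 in induced cells and 533 in uninduced cells. RNU4ATAC, the U4 RNA of the minor spliceosome, inside CLASP1, lay in one with Pol II at 392 (induced) and 497 (uninduced). SNORA13 inside EPB41L4A had Pol II at 266 (induced) and 307 (uninduced). A methionine tRNA gene inside FBXO31 had 206 (induced) and 267 (uninduced), and an aspartate tRNA gene inside LTA4H had 214 (induced) and 250 (uninduced). These 5 were taken from the upper end by Pol II. Of the 16 regions with an snRNA, snoRNA or tRNA gene, 4 had no induced Pol II, and these had uninduced Pol II of 2.46 to 6.40; among the 42 with a miRNA gene, 4 had none.

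Pol II was listed in induced cells at 5448 of the 7228 regions (75.4%, 95% interval 74.4 to 76.4% for counting error only), so 1780 were without it. Over all 57247 uninduced Pol II regions, 17409 (30.4%) overlapped none of the induced list. The share was 76.4% at intergenic regions with Pol II and 97.4% at gene ends. The induced Pol II list was shorter, with 50665 regions over 56.7 Mb, against 57247 over 70.9 Mb of the genome in the uninduced list, and with Pol II lists of equal length the share was 78.5%. A lower value in each cell and the mark in fewer cells cannot be told apart in these bulk samples. When both roles were exchanged and the induced lists chose the regions, 5507 of 5821 (94.6%) overlapped uninduced Pol II.

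The strength of uninduced Pol II ordered these shares. With a −log10 q under 5, 427 of 1413 regions (30.2%) overlapped an induced Pol II region; from 5 to 10 it was 58.2%, from 10 to 20 85.8%, from 20 to 50 98.5%, and from 50 upwards 99.3%. Intergenic regions had 32.6, 58.2, 85.2, 98.2 and 99.6% in the same classes. Gene ends had 39.4, 66.4, 89.1, 97.9 and 99.9%. In each class, the 95% intervals of the intragenic and intergenic shares overlapped. A listed start made little difference within classes: 31.3% of regions with one and 30.1% of regions with neither feature overlapped induced Pol II under a −log10 q of 5, and 86.3% and 85.7% from 10 to 20.

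**Figure D3:**
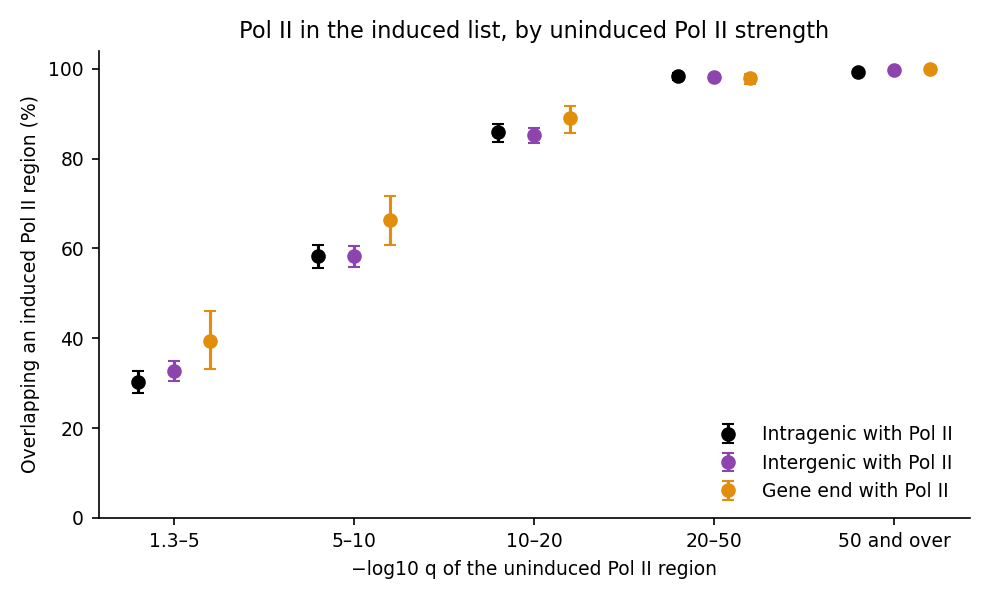
Share (%) of shared H3K27ac regions that overlapped an induced Pol II region, by the −log10 q of the uninduced Pol II region, for intragenic (black), intergenic (purple) and gene end (orange) regions; bars are Wilson 95% intervals. For intragenic regions the share was 30.2% in the lowest class and 99.3% in the highest, and the 3 kinds of region lay close together in the upper classes.

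H3K27ac held its place at most regions. A place over 10 points lower was found at 991 regions (13.7%), against 17.8% of all 66669 shared H3K27ac regions, and a place over 10 points higher at 482 (6.67%), against 13.7%. Both shares were below the background. So were those of intergenic regions with Pol II (15.1% lower, 7.16% higher) and of gene ends with Pol II (4.10% and 3.68%). Shared intragenic regions without Pol II had 24.4% lower and 19.2% higher. The median difference of the 7228 regions was −1.41 points, against −0.90 over all shared regions. An induced partner can be wider than the region and have its strongest summit outside it, so the places were also taken from the highest induced summit inside the region, an alternative chosen after seeing the data. On that scale 717 of 7158 regions were over 10 points lower (10.0%, against 14.3% of all) and 541 over 10 points higher (7.56%, against 14.0%), and the median difference changed sign, to 0.24. It ranks the 65290 shared regions with an induced summit inside, so a region with unchanged values can have another place.

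For Pol II, 5412 regions had a Pol II region with a partner in the induced list. Among them 1004 (18.6%) had a Pol II place over 10 points lower, against 14.9% of all shared Pol II regions, and 478 (8.83%) a place over 10 points higher, against 13.2%. By the summits inside the region, 526 of 5184 were lower (10.1%) and 543 higher (10.5%), and the median was 0.21 points in place of −1.72. Intergenic regions with Pol II had 10.7% lower and 10.4% higher on this scale, and gene ends 6.17% and 5.31%. No share over all Pol II regions was taken on it. The excess of lower over higher Pol II places thus held on the first scale and not on the second. These scales rank different sets. The first ranks all shared Pol II regions, and the second H3K27ac regions with a Pol II summit inside in both lists. LIMS1, with the same Pol II values on both, had −51.4 points on the first and −31.1 on the second. The position of the summit and the change of set therefore cannot be told apart here.

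The regions whose H3K27ac place was lower were also those with a lower share of induced Pol II. By summits inside the region, 43 of the 163 regions whose H3K27ac place was over 20 points lower overlapped induced Pol II (26.4%, 20.2 to 33.6%). From 10 to 20 points lower it was 257 of 554 (46.4%, 42.3 to 50.6%), within 10 points 4662 of 5900 (79.0%, 78.0 to 80.0%), and over 10 points higher 430 of 541 (79.5%, 75.9 to 82.7%). The order held at like strength of uninduced Pol II: from 5 to 10 the shares were 20.8, 28.1, 61.4 and 79.7%, and from 10 to 20 they were 37.0, 57.5, 89.7 and 93.7%. Intergenic regions with Pol II had 28.4, 51.5, 80.1 and 81.0%, in the same order. Gene ends had 65.9, 81.6, 98.1 and 93.9%, where the last class was not the highest, and from 5 to 10 they had 66.7% of 6, 34.5% of 29, 68.0% of 197 and 81.6% of 38, so the order did not hold there. The 1780 regions without induced Pol II had a median H3K27ac of 44.8 in the induced list and 62.6 in the uninduced list, and the 5448 with it had 87.6 (induced) and 91.8 (uninduced). Over 5164 regions with both differences, those of H3K27ac and Pol II had a Spearman correlation of 0.27 and a Pearson correlation of 0.27, given as a description.

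**Figure D4:**
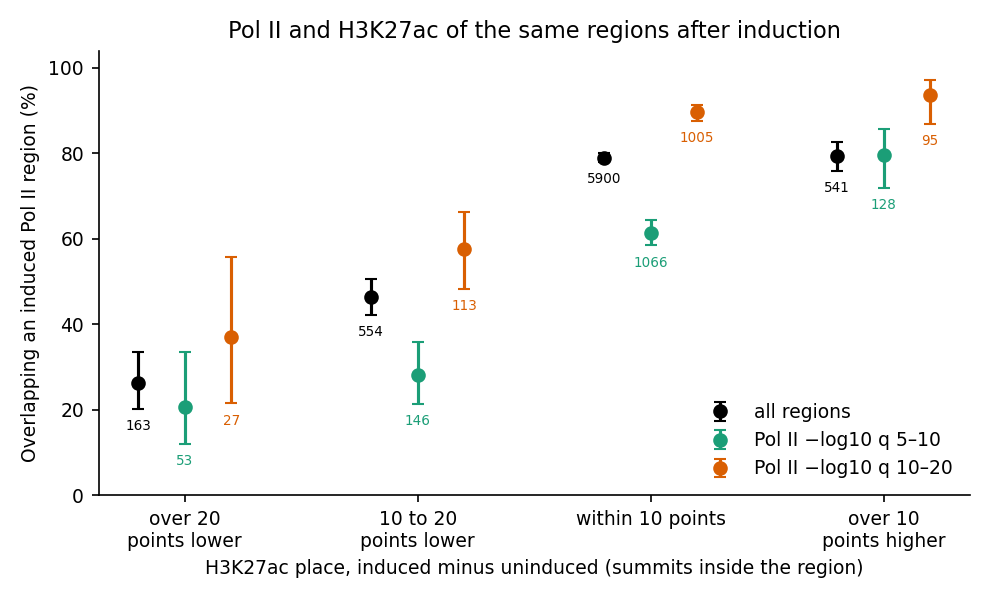
Share (%) of the regions that overlapped an induced Pol II region, by the difference in H3K27ac place (induced minus uninduced, summits inside the region), over all regions (black) and for uninduced Pol II −log10 q of 5 to 10 (green) and 10 to 20 (orange); bars are Wilson 95% intervals and numbers are regions. The share over all regions was 26.4% where H3K27ac was over 20 points lower and 79.0% where it stayed within 10 points.

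Wnt and TCF target genes held 22 regions in 15 of the 42 genes matched (35.7%). Of all protein-coding genes 22.0% were hosts, and genes of like length had 22.5% on average. Induced Pol II overlapped 10 of the 22 (45.5%), where the regions of the same classes of uninduced Pol II strength had it at 62.3% on average, below called the strength-matched mean. The H3K27ac place was over 10 points lower at 7 and over 10 points higher at 2 (1 by summits inside), 31.8% lower where the regions as a whole had 13.7% lower and 6.67% higher and all shared H3K27ac regions had 17.8% and 13.7%. The median difference was −4.50 points, against −1.41 over the 7228 regions and −0.90 over all shared regions. The 7 regions lie in APCDD1, CRIPTO, NKD1, TCF7, TCF7L1, WIF1 and ZNRF3. The list was written with earlier results of these data known, so these counts describe it and are not independent support.

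Inhibitors of Wnt signalling host 4 of those 7, a grouping made after the values were seen. NOTUM, a secreted enzyme that inactivates Wnt ligands and is on the same list, was not among them, with H3K27ac of 74.5 (induced) and 73.2 (uninduced). APCDD1, a membrane protein that binds Wnt ligands, had an H3K27ac −log10 q of 14.4 in induced cells and 58.7 in uninduced cells at chr18:10464399-10465536, and Pol II of 4.34 in uninduced cells alone. ZNRF3, a ubiquitin ligase that removes Frizzled receptors, had H3K27ac of 85.6 (induced) and 163 (uninduced) at chr22:29036264-29042047 and Pol II of 8.93 in uninduced cells alone. WIF1, a secreted inhibitor that binds Wnt ligands, had H3K27ac of 120 (induced) and 198 (uninduced), with Pol II of 3.78 in uninduced cells alone. NKD1, which binds Dishevelled, kept Pol II, at 10.6 in induced cells and 28.2 in uninduced cells, with H3K27ac of 159 (induced) and 260 (uninduced). H3K27ac was thus lower in the induced list at APCDD1, ZNRF3, WIF1 and NKD1 and close to equal at NOTUM. A region in C22orf31, 22.9 kb from the ZNRF3 region, had H3K27ac of 2.54 (induced) and 25.0 (uninduced) and Pol II of 13.7 in uninduced cells alone.

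The TCF genes themselves differed from region to region. TCF7L1, a TCF factor best known as a repressor, held 3 regions. Its strongest, at chr2:85188315-85192512, had H3K27ac of 160 in induced cells and 295 in uninduced cells, and Pol II of 17.2 in uninduced cells alone. Another had H3K27ac of 107 (induced) and 156 (uninduced) with Pol II of 4.28 in uninduced cells alone. The third went the other way, with H3K27ac of 81.7 (induced) and 58.9 (uninduced) and Pol II of 12.2 (induced) and 4.31 (uninduced). TCF7, the TCF factor of T cells and also a Wnt target, had 1 region with H3K27ac of 16.9 (induced) and 50.6 (uninduced) and Pol II of 4.12 in uninduced cells alone, and 1 whose Pol II was 12.6 in both. TCF7L2 itself, whose dominant negative form was induced, had no such region: 19 of its 24 H3K27ac regions were shared and intragenic but without Pol II.

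Other targets on the list varied in direction. EPHB2, the ephrin receptor that positions crypt cells, held 3 regions with H3K27ac of 145, 136 and 116 in induced cells and 183, 143 and 129 in uninduced cells. Uninduced Pol II there was between 7.01 and 7.30, and 1 of the 3 had induced Pol II, at 3.47. LGR5, the R-spondin receptor that marks intestinal stem cells, had 1 region with H3K27ac of 39.6 (induced) and 55.5 (uninduced) and Pol II of 9.23 (induced) and 11.9 (uninduced), and 1 weak one with 10.2 (induced) and 5.04 (uninduced) and Pol II of 4.63 in uninduced cells alone. The weak LGR5 region is the one on the list over 10 points higher by summits inside, at 16.2 points. TNFRSF19, a TNF receptor family member of intestinal stem cells in mouse, had H3K27ac of 197 (induced) and 208 (uninduced) and Pol II of 16.1 (induced) and 12.3 (uninduced) at its stronger region. PROX1, a homeobox factor, had Pol II of 141 (induced) and 175 (uninduced) with H3K27ac of 103 (induced) and 139 (uninduced). The regions of CCND1 and FOSL1 lay under wide Pol II regions of 16.4 and 8.22 kb that reach a gene end. The highest induced summit within the CCND1 region was 14.6, against 12.9 in uninduced cells, while its wide induced partner had 230 from a summit outside it.

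**Figure D5:**
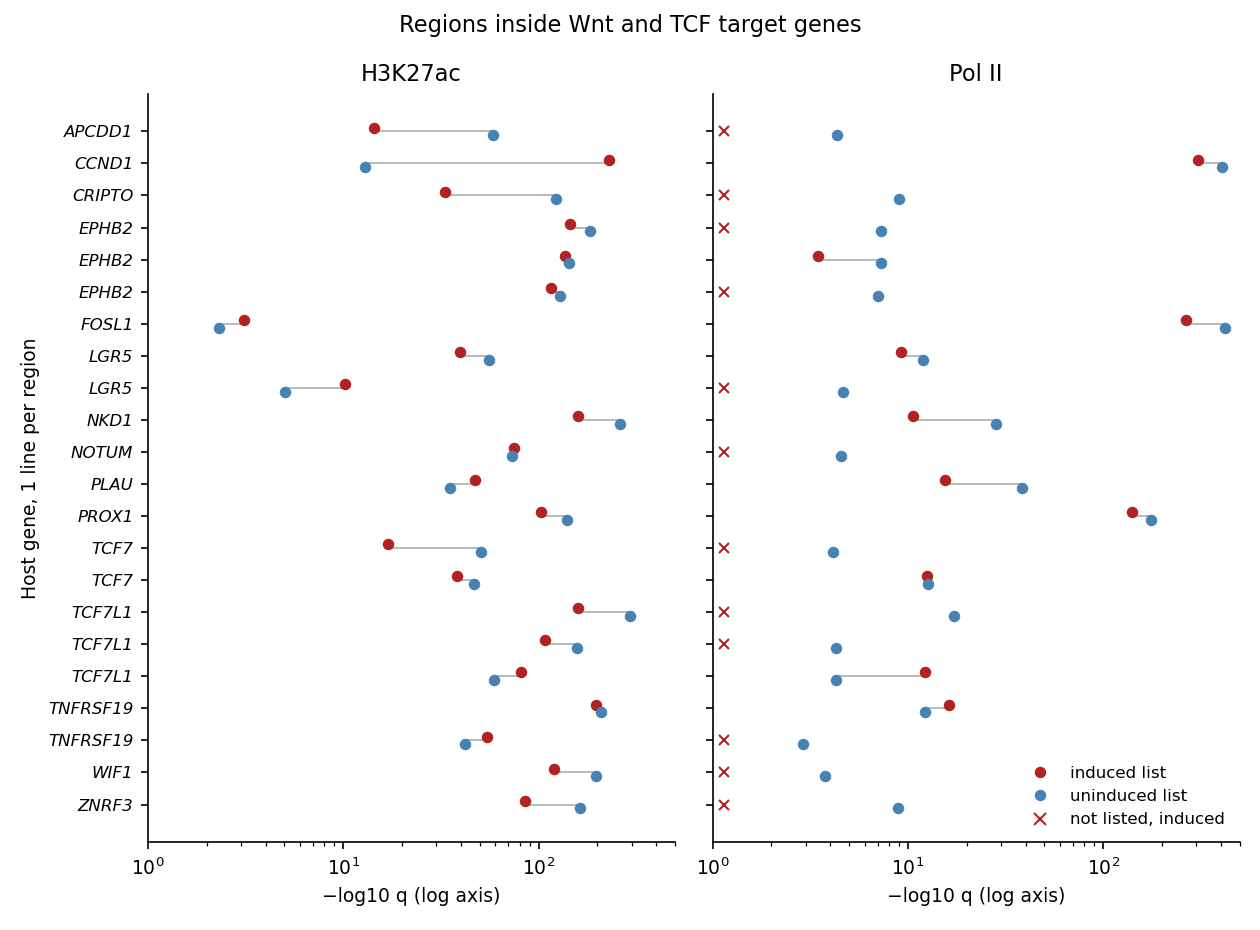
The −log10 q (log axes) of H3K27ac (left panel) and Pol II (right panel) in the 22 regions inside Wnt and TCF target genes, 1 line per region, in the induced (red) and uninduced (blue) lists; a cross marks no overlapping induced Pol II region. H3K27ac was lower in the induced list at 15 of the 22 and Pol II was unlisted there at 12. The median H3K27ac of the 7228 regions was lower there too, at 74.0 against 82.4. In the other lists with 20 or more regions, it was lower at 16 of 30 (epithelial factors), 19 of 33 (junctions), 19 of 26 (EGFR and ERK) and 22 of 33 (Notch and BMP). The CCND1 value of 230 comes from a summit outside its region.

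Core components of the Wnt pathway, fixed as a separate list of 38 genes, held 12 regions in 10 genes, 9 of them with induced Pol II (75.0%, strength-matched mean 76.3%). TBL1XR1, a subunit of a nuclear corepressor complex that also works with β-catenin, had H3K27ac of 253 (induced) and 313 (uninduced) and Pol II of 45.5 (induced) and 109 (uninduced). AXIN1, a scaffold of the β-catenin destruction complex, had H3K27ac of 153 (induced) and 219 (uninduced) and Pol II of 3.19 (induced) and 8.99 (uninduced). APC, the tumour suppressor of that complex, held the only region of the list over 10 points lower, with H3K27ac of 6.61 (induced) and 14.1 (uninduced) and Pol II of 9.90 (induced) and 20.2 (uninduced) at an internal start. TLE2, a corepressor of TCF factors, had H3K27ac of 198 (induced) and 207 (uninduced) and Pol II of 136 (induced) and 151 (uninduced). AXIN2, ASCL2, MYC, RNF43, SP5 and EPHB3, well known targets of the pathway, held no such region; of these, RNF43 had 1 shared intragenic region without Pol II, and each had an H3K27ac region at a gene end.

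Colonocyte genes gave 9 regions in 8 of 43 genes, 8 with induced Pol II (88.9%, strength-matched mean 87.2%). The H3K27ac place was over 10 points lower at 2 of them (22.2%) and higher at 1, against 13.7% and 6.67% of the 7228 regions. The higher one, in TSPAN1, was not over 10 points higher by summits inside. SLC9A3, the sodium-proton exchanger of the brush border, had H3K27ac of 285 (induced) and 295 (uninduced) and Pol II of 236 (induced) and 265 (uninduced) at its stronger region, and H3K27ac of 15.4 (induced) and 34.2 (uninduced) at its other region, one of the 2 that were lower. HNF4A, a nuclear receptor of gut epithelium, had H3K27ac of 199 (induced) and 197 (uninduced) and Pol II of 53.9 (induced) and 62.6 (uninduced). PLAC8 had Pol II of 123 (induced) and 161 (uninduced) with H3K27ac of 194 (induced) and 196 (uninduced). The other lower region was in SLC51A, a subunit of the basolateral bile acid transporter, with H3K27ac of 21.8 (induced) and 68.7 (uninduced) and Pol II of 14.7 in uninduced cells alone. KLF5, a factor of crypt cells, had 1 region, with H3K27ac of 94.5 (induced) and 126 (uninduced) and Pol II of 8.67 (induced) and 12.2 (uninduced). No region lay in CDX1, CDX2, ELF3, VIL1, GUCY2C, GUCA2A or FOXJ3, and TMPRSS3 held 1. The goblet and secretory list had 6 regions in 3 of 27 genes, 5 with induced Pol II (83.3%, strength-matched mean 94.7%). CREB3L1, a transcription factor of secretory cells, had 1 region with H3K27ac of 23.2 (induced) and 48.3 (uninduced) and Pol II of 13.6 in uninduced cells alone, and 1 with H3K27ac of 47.3 (induced) and 46.1 (uninduced) and Pol II of 33.7 (induced) and 55.8 (uninduced).

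Epithelial transcription factors held 30 regions in 14 of 34 genes, 20 of them with induced Pol II (66.7%, strength-matched mean 64.4%). The H3K27ac place was over 10 points lower at 5 (16.7%) and higher at 2, against 13.7% and 6.67% of the 7228 regions. By summits inside, 1 was lower and 1 higher, against 10.0% and 7.56%. FOXP1, a forkhead factor, held 10, of which 4 had induced Pol II. PPARG, a nuclear receptor of lipid metabolism, held 1 at H3K27ac of 99.2 (induced) and 188 (uninduced) with Pol II of 10.8 in uninduced cells alone, and 1 at 143 (induced) and 155 (uninduced) with Pol II of 18.3 (induced) and 19.8 (uninduced). EHF, an ETS factor of epithelia, had H3K27ac of 215 (induced) and 216 (uninduced) and Pol II of 13.1 (induced) and 27.4 (uninduced) at its stronger region, and 84.2 (induced) and 48.8 (uninduced) at a weaker one, whose Pol II of 5.14 was listed in uninduced cells alone. RXRA, the shared partner of nuclear receptors, had induced Pol II at its 3 regions.

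Junction and adhesion genes held 33 regions in 17 of 46 genes, 22 with induced Pol II (66.7%, strength-matched mean 69.6%). The H3K27ac place was over 10 points lower at 5 (15.2%) and higher at 3, against 13.7% and 6.67% of the 7228 regions. By summits inside, 2 were lower and 1 higher, against 10.0% and 7.56%. MPP7, a polarity scaffold, had 1 region with H3K27ac of 16.8 (induced) and 63.5 (uninduced) and Pol II of 7.93 in uninduced cells alone, and another at an internal start with H3K27ac of 187 (induced) and 176 (uninduced) and Pol II of 118 (induced) and 152 (uninduced). LAMA3, a laminin chain of the basement membrane, showed the same contrast, with Pol II of 44.0 (induced) and 45.8 (uninduced) at an internal start and 5.57 in uninduced cells alone at its other region. KRT8, an epithelial keratin, had H3K27ac of 111 (induced) and 178 (uninduced) where Pol II of 9.82 was in the uninduced list alone, and 261 (induced) and 252 (uninduced) where Pol II was 10.5 (induced) and 9.64 (uninduced). Occludin (OCLN), of the tight junction, was higher in H3K27ac at both of its regions, 159 and 101 in induced cells against 130 and 67.5 in uninduced cells.

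Genes of the EGFR and ERK pathway had the highest share with induced Pol II among the 5 lists with 20 or more regions. Their 26 regions in 11 of 35 genes had induced Pol II in 23 cases (88.5%), strength-matched mean 58.4%, at a median uninduced Pol II of 7.19; SPRED2, an inhibitor of ERK signalling, held 8 of the 26, so the regions are not independent. The H3K27ac place was over 10 points lower at 2 of the 26 (7.69%) and higher at 1, against 13.7% and 6.67% of the 7228 regions. By summits inside, 3 were lower and 3 higher, against 10.0% and 7.56%. The strongest SPRED2 region by H3K27ac had 195 (induced) and 215 (uninduced) with Pol II of 15.2 (induced) and 13.9 (uninduced), and 7 of its 8 had induced Pol II. EGFR, the receptor itself, held 4 regions, of which 2 had induced Pol II; the strongest had H3K27ac of 182 (induced) and 161 (uninduced) and Pol II of 25.9 (induced) and 49.7 (uninduced). Of its ligands, EREG held 3 weak regions and AREG 2, and induced Pol II overlapped these 5, between 2.99 and 7.74. BTC, another ligand, had H3K27ac of 64.9 (induced) and 122 (uninduced) and Pol II of 1.36 (induced) and 4.51 (uninduced). ERBB2, a partner receptor, had H3K27ac of 216 (induced) and 230 (uninduced) and Pol II of 171 (induced) and 243 (uninduced).

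Notch and BMP genes held 33 regions in 11 of 39 genes, 22 with induced Pol II (66.7%, strength-matched mean 75.0%). The H3K27ac place was over 10 points lower at 4 (12.1%) and higher at 1, against 13.7% and 6.67% of the 7228 regions. By summits inside, the counts were 0 and 0, against 10.0% and 7.56%. MAML2, a coactivator of Notch, held 8 of them, and its strongest had H3K27ac of 257 (induced) and 246 (uninduced) and Pol II of 44.8 (induced) and 60.3 (uninduced). RBPJ, the DNA-binding factor of Notch signalling, had Pol II of 121 (induced) and 231 (uninduced) at an internal start with H3K27ac of 248 (induced) and 267 (uninduced). Interferon and inflammation genes held 8 regions in 8 of 29 genes, 6 with induced Pol II (75.0%, strength-matched mean 76.8%). OAS1 and OAS2, enzymes of the antiviral response, were lower in H3K27ac, at 109 and 127 in induced cells against 206 and 219 in uninduced cells; Pol II there was 18.7 and 14.2 in induced cells and 21.8 and 18.0 in uninduced cells. The OAS1 and OAS2 regions lie 86.2 kb apart on chromosome 12.

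The other lists held few regions. Cell cycle genes had 15 in 9 of 35 genes, 12 with induced Pol II (80.0%, strength-matched mean 70.7%); PCNA, the sliding clamp of DNA replication, had Pol II of 290 (induced) and 371 (uninduced), and CDK6, a G1 kinase, had H3K27ac of 232 (induced) and 222 (uninduced). Genes of doxycycline and mitochondrial stress had 7 in 4 of 20, 5 with induced Pol II (71.4%, strength-matched mean 67.8%); ASNS, asparagine synthetase, had Pol II of 143 (induced) and 276 (uninduced). Housekeeping genes had 2 in 2 of 20, 1 with induced Pol II. Immune, stromal and endothelial markers had 15 in 7 of 22 genes, 13 with induced Pol II (86.7%, strength-matched mean 67.0%), a margin nearest to that of the EGFR and ERK list. VWF, a clotting protein of endothelium, held 5 of those, and its strongest had H3K27ac of 177 (induced) and 129 (uninduced) and Pol II of 17.1 (induced) and 31.1 (uninduced). Liver, muscle and neuron markers had 9 in 6 of 22 genes, 7 with induced Pol II (77.8%, strength-matched mean 74.7%), among them SYT1, a synaptic vesicle protein, with H3K27ac of 86.7 (induced) and 117 (uninduced) and Pol II of 21.2 (induced) and 46.6 (uninduced). Intragenic H3K27ac with Pol II was thus listed inside genes typical of other tissues too, and whether those genes are transcribed was not measured here.

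The 7228 regions lay in 4393 host genes, 22.0% of the 19974 protein-coding genes, of which 2752 held 1 region and 13 held 10 or more. Over the 14 lists, 121 genes hosted one. Longer genes held them more often: with the genes cut into 10 equal classes by length, the longest class had 56.5% hosts. The shortest class, with genes of at most 3.12 kb, had 0, which the choice largely fixes, since 1 kb at each gene end was barred. The share of hosts in each list (%) is given with the mean over its genes' length classes in brackets. It was 41.2 (26.2) for epithelial factors, 37.0 (31.5) for junction, 35.7 (22.5) for Wnt target, 31.8 (21.7) for immune and 31.4 (16.2) for EGFR genes. RAD51B, a recombination protein, held 23 regions over 863 kb, with Pol II in 19 of them after induction. GSE1, a subunit of a histone deacetylase complex, held 18 (16 with induced Pol II), PTPRN2, a receptor phosphatase of secretory vesicles, 14 (11), RANBP2, a nuclear pore protein, 13 (12) over the 1123 kb that the gene table gives it, and IQCJ-SCHIP1, a readthrough locus, 12 (7). IRS1, the insulin receptor substrate, also held 12 (11 with induced Pol II) in a gene of 68.5 kb, or 17.5 per 100 kb, against 0.99 to 4.49 for the other 9 of the leading 10 hosts.

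Regions of 1 gene could differ. Of 1641 hosts with several regions, 803 had induced Pol II at each of them, 758 at some and 80 at none. The regions were spread out, with a median of 29.3 kb to the nearest other one, and 35.0% had another within 12.5 kb. Other classes with Pol II were alike, at 24.8 kb and 37.9% for intergenic regions and 31.5 kb and 31.4% for gene ends. For the more numerous shared intragenic regions without Pol II those values were 3.43 kb and 68.0%. By chromosome, the share of shared intragenic regions with Pol II was highest on chromosome 19 (44.1%), where 86.1% of them also had induced Pol II, and chromosome 18 had the lowest share with induced Pol II, 64.9%.

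The regions whose H3K27ac place was lowest relative to uninduced cells had weak Pol II, at 1.35 to 9.61 in uninduced cells. UGP2, which makes UDP-glucose, had H3K27ac of 4.07 (induced) and 72.2 (uninduced). MYOC, myocilin, had 2.54 (induced) and 49.4 (uninduced), and DNM3, a dynamin, 18.1 (induced) and 145 (uninduced); other regions of these neighbouring genes lie as near as 268 kb. RIMS2, a scaffold of synaptic release sites, had 14.3 (induced) and 134 (uninduced), ERMP1, a peptidase of the endoplasmic reticulum, 2.04 (induced) and 27.2 (uninduced), and CCDC148 17.4 (induced) and 139 (uninduced). Of these 6, UGP2 alone had induced Pol II, at 4.09 against 1.35 in uninduced cells. The 6 regions with the largest difference upwards, in KIRREL3, FSCN2, ABCC3, EXD3, DUS1L and ZKSCAN1, were regions of 277 to 628 bp beside far wider induced partners; 4 had no induced summit inside, and ABCC3 and ZKSCAN1 were 5.33 and 6.98 points higher by summits inside. By summits inside, a measure chosen after the values were seen, SH2B3, an adaptor that restrains cytokine signalling, was 31.0 points higher, with H3K27ac of 31.4 (induced) and 8.18 (uninduced).

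Among Pol II regions in both lists, the Pol II place was lowest relative to uninduced cells in LIMS1, CPLX2, ST8SIA6, EXPH5, PALM2AKAP2 and ANXA8. LIMS1, an adaptor of focal adhesions, had Pol II of 2.12 (induced) and 27.2 (uninduced) and H3K27ac of 83.1 (induced) and 231 (uninduced). CPLX2, a complexin of vesicle release, had Pol II of 2.86 (induced) and 32.5 (uninduced) and H3K27ac of 52.7 (induced) and 102 (uninduced). EXPH5, an effector of RAB27 in vesicle transport, had Pol II of 2.91 (induced) and 30.5 (uninduced) and H3K27ac of 46.3 (induced) and 101 (uninduced). ANXA8, an annexin, has near-identical copies nearby, so its reads are uncertain. H3K27ac was lower in the induced list at each of the 6. By the same rule Pol II was higher in CANX, TRIOBP, CBX5, HDGF, ABCC3 and RBPMS. Of these 6, HDGF and RBPMS had a Pol II summit inside the region in both lists, at 1.94 (induced) and 5.81 (uninduced) in HDGF, and at 15.9 (induced) and 1.87 (uninduced) in RBPMS, an RNA-binding protein.

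Among acetylated regions that no induced Pol II region overlapped, uninduced Pol II was highest in SUPT4H1, GMEB2, CALM2, SSH3, INTS11 and KLF16, at 179 to 343. These Pol II regions were not lost: each had an induced partner, at 79.6 to 328, that did not reach the acetylated region, and at 5 of the 6 the uninduced Pol II region reached a gene end. By summits inside the region, chosen after the values were seen, the leaders were BABAM2, SCARA5, FAM163A, P2RY6, ANKRD28, MME, BMPR1B and TNFRSF1B, at 19.7 to 36.0. BABAM2, a subunit of BRCA1 complexes, had H3K27ac of 42.0 (induced) and 119 (uninduced). MME, the peptidase neprilysin, had 27.8 (induced) and 152 (uninduced). TNFRSF1B, a TNF receptor, had 36.8 (induced) and 108 (uninduced), and BMPR1B, a BMP receptor, had 143 (induced) and 127 (uninduced). H3K27ac was thus lower at 7 of the 8 leaders and higher at BMPR1B.

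By summits inside, Pol II was also far lower at ST6GALNAC5, a sialyltransferase, with 4.52 in induced cells, against 56.0 in uninduced cells, and H3K27ac of 83.7 (induced) and 239 (uninduced). It was higher in induced cells at RAPGEF4, a cyclic AMP sensor, with 25.4 against 6.65, and at SLC45A3, with 30.2 against 9.55. NPAS2, a circadian factor, had 19.9 (induced) and 6.92 (uninduced), with H3K27ac of 161 (induced) and 149 (uninduced). These 4 were likewise picked after their values were seen.

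The 8 highest regions by H3K27ac come next; places this near the top have little room to differ. SLC67A1 had H3K27ac of 292 (induced) and 355 (uninduced) and Pol II of 422 (induced) and 392 (uninduced). KLF7, a Krüppel-like factor, had H3K27ac of 315 (induced) and 346 (uninduced) and Pol II of 205 (induced) and 337 (uninduced). PTPA, an activator of phosphatase 2A, had H3K27ac of 352 (induced) and 345 (uninduced) and Pol II of 99.5 (induced) and 89.0 (uninduced). BICRAL, a subunit of a BAF chromatin remodeller, had H3K27ac of 338 (induced) and 341 (uninduced). TCF20, which despite its symbol is no TCF/LEF factor, had H3K27ac of 285 (induced) and 328 (uninduced) and Pol II of 80.8 (induced) and 230 (uninduced). CLN8, CTSB and DUSP8 completed the 8 highest, with H3K27ac of 232 to 308 in induced cells and 336 to 350 in uninduced cells; the lowest induced value was that of CTSB, at 232 against 337 in uninduced cells. The highest Pol II was in TEX14, a protein of germ cell bridges, at 483 (induced) and 558 (uninduced), and in RSRP1, at 374 (induced) and 489 (uninduced); SLC34A3, PHYKPL and ING1 were also among the 8 highest, under Pol II regions that reach a gene end.

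At the limits of the choice, the widest regions kept were in TGFBR3 (5995 bp), CCDC192 (5990 bp) and ISM1 (5987 bp), and the narrowest left out in SUGCT (6013 bp), LASP1 (6019 bp) and VTI1A (6026 bp). The region in MTMR4 was kept at 1001 bp from a gene end, with Pol II of 85.7 (induced) and 118 (uninduced), and the one in CACNG4 at 1007 bp. Those in RSPH10B2 (999 bp), ANAPC11 (998 bp) and WHRN (997 bp) were left out.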

How the data were processed

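The series holds 34 samples, of which 10 are ChIP-seq samples of DLD1 cells; the 24 RNA-seq samples were not analysed here. Per the labels' protocols, sonicated chromatin (250 to 300 bp) gave single-end reads (75 bp), 40 to 55M for each sample. Per the submitters' processing notes, which give no roles, the tools include MACS2 2.1.1.20160309, BWA 0.7.17-r1188, deepTools 3.5.0 and SAMtools 1.10. The authors deposited 1 peak list per antibody and condition and the sources used here do not say whether reads were pooled for it. Per summit, the deposited values are a fold enrichment (a ratio over background) and a −log10 q, the authors' own, and both depend on depth and input. The deposited summit lists repeat these values. The notes name builds hg19 and hg38; positions up to 83228308 on chromosome 17 place the lists on GRCh38.

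Rows of a region were collapsed to its highest summit, on the 22 autosomes and X, and overlaps needed 1 bp; overlap counts equalled those of bedtools 2.31.1. Gene ends were both ends of 19974 protein-coding genes in RefSeq's gene table (GRCh38.p14). Counts used Python 3.11.15 and pandas 2.3.3, and the overlap and place functions were tested on simulated data. Columns of per-sample values left unmatched numbered 0. With 1 list per condition no test could be run, and Wilson 95% intervals cover counting error only.

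The regions, the gene lists and the rules were chosen with earlier results of these data known. The genes named were the 8 highest regions by H3K27ac and by Pol II, the 6 hosts with the most regions, the 6 regions with the largest difference in place each way (−log10 q of at least 20 for H3K27ac and 10 for Pol II in either list), the 6 highest without induced Pol II, up to 3 hosts per gene list by H3K27ac, 20 genes in any case, and up to 3 regions on either side of each limit. Other genes named from the lists, and the leaders by summits inside, were picked after their values were seen. No genome sequence was used, so a planned motif search in the regions themselves was not run.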

Additional observations from a re-analysis of the deposited data

How the results depend on the processing

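No paired analysis was possible because each condition has 1 list for both of its samples, and leaving out a replicate was impossible for the same reason. Of 39 alternative values, 20 stayed within 1.5 times of the reported count or within the interval of the reported share, 17 moved and 2 changed sign. The number of regions ran from 5452 (−log10 q of at least 5) to 8035 (no width limit), with 6328 when the ends of every annotated gene were barred, and the hosts were at least 3314. The share with induced Pol II was 73.3% with 5 kb around gene ends, 74.2% with the ends of every gene barred, 77.5% with a partner within 1 kb, and 78.5% with Pol II lists of equal length, against 75.4% as reported. The median H3K27ac difference of −1.41 points was −0.56 with a −log10 q of at least 5, −1.75 by fold enrichment, −1.18 by the partner of longest overlap and 0.24 by summits inside the region, a change of sign. The median Pol II difference of −1.72 was −1.95 by fold enrichment, −1.27 by longest overlap and 0.21 by summits inside, again a change of sign. By summits inside, 526 regions had a lower Pol II place. By fold enrichment, 1574 regions had a lower and 992 a higher H3K27ac place, and 778 a higher Pol II place. Past 20 points, 216 were lower and 158 higher for H3K27ac, and 399 lower and 160 higher for Pol II. Shares over all shared regions were not computed by fold enrichment or past 20 points, so these counts have no background beside them. The cause was not tested. The summits-inside values leave out summits of wide induced partners outside the region by construction. They also rank a different set of regions, and these changes cannot be told apart. NOTUM, with the same H3K27ac values on both scales, was 1.14 points higher as reported and 3.54 points higher by summits inside. Depth per list is unknown.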
